A study of Mus musculus with 8 samples.

Results

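The 28 genes described here encode 20 enzymes of cholesterol synthesis, 4 proteins that set the activity of the transcription factor SREBP2, 3 proteins that move cholesterol inside the cell, and *Aacs*, which feeds acetoacetate into the same supply of precursors. They were chosen by gene symbol from the known biology of the pathway, with earlier results of these data known. All 28 were found among the 46078 gene identifiers of the deposited count table. Poly(A)-enriched RNA from whole livers of 4 LWT mice, labelled wild-type, and 4 LΔ*Rbfox2* mice, labelled *Rbfox2* knockout, was sequenced, with 1 library per liver. Per the study's methods, all 8 mice carried loxP sites on both *Rbfox2* alleles, and the LΔ*Rbfox2* mice also carried *Alb-cre*, a Cre recombinase driven by the albumin promoter and so active in hepatocytes. The other cells of the liver keep *Rbfox2*, which encodes an RNA-binding protein that regulates alternative splicing. Every animal ate a control diet (CD, labelled chow), for 12 weeks according to the labels, although the methods describe a longer feeding period that began at 8 weeks of age, and livers were taken after a 16 h fast. The methods state that mice were male unless noted otherwise. The labels do not give the cage, litter or day of any mouse.

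Cholesterol is built from acetyl-CoA. A chain of cytosolic and endoplasmic reticulum enzymes makes mevalonate, converts it to isoprenoid units, joins these into squalene, folds squalene into lanosterol and trims lanosterol to cholesterol. SREBP2, the product of *Srebf2*, is the main transcriptional activator of this chain. It is held in the endoplasmic reticulum by SCAP and the INSIG proteins while sterols are plentiful, and is carried to the Golgi and cut into an active factor when they fall. The liver is a major site of cholesterol synthesis, and the pathway is known to be low in fasted animals and high after feeding. At promoters, SREBP proteins act together with partners such as NF-Y, which binds CCAAT boxes.

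The promoter letters of 6 members are shown here because the results below turn on these genes or on their shared regulator. RefSeq promoter windows on GRCm38.p6, from 250 bases before to 50 bases after a gene's start, were matched by symbol for 23 of the 28 members (29 windows, since some genes have several starts). For *Fdps*, *Fdft1* and *Sqle* no window was matched. Windows of *Stard4* and *Npc1* were left out by genomic position and were not searched. The shares over all windows given below were taken without that exclusion. The windows are chr13:119690101-119690400 for *Hmgcs1*, chr5:28071162-28071461 for *Insig1*, chr13:8885356-8885655 for *Idi1*, chr10:76531355-76531654 for *Lss*, chr15:82147019-82147318 for *Srebf2* and chr5:125475623-125475922 for *Aacs*, all on the plus strand. Each is printed 5′ to 3′, with matches to TCACNCCAC (a long form of the SREBP site) or CCAAT (read as ATTGG where it lies on the other strand) in capitals.
Hmgcs1: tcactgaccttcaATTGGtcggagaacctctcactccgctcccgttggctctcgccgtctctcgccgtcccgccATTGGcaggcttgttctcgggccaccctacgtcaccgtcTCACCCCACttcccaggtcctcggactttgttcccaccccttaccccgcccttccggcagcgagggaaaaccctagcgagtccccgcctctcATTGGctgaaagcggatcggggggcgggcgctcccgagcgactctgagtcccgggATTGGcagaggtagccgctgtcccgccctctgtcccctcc
Insig1: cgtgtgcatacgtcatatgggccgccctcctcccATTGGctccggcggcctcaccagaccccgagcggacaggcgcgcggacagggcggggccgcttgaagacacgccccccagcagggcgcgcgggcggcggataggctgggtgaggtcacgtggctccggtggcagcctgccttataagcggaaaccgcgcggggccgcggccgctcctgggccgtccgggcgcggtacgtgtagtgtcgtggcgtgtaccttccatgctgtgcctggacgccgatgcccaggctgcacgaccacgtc
Idi1: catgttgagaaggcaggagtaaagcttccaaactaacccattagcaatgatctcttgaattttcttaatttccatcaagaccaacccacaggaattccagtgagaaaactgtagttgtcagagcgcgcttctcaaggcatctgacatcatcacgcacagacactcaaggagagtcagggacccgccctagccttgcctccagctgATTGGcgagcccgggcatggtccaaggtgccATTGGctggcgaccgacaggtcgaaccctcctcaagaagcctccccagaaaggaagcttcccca
Lss: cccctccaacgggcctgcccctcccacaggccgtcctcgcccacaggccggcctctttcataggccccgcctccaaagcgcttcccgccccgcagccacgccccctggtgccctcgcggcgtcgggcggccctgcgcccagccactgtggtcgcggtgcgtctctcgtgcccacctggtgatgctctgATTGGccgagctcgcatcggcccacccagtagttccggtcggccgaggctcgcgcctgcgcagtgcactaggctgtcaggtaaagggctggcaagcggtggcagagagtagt
Srebf2: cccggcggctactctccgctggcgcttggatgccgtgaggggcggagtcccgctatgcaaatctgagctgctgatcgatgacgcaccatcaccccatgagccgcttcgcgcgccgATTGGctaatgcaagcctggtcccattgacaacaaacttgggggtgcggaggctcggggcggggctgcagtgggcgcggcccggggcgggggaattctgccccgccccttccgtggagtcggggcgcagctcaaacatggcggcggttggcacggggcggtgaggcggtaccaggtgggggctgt
Aacs: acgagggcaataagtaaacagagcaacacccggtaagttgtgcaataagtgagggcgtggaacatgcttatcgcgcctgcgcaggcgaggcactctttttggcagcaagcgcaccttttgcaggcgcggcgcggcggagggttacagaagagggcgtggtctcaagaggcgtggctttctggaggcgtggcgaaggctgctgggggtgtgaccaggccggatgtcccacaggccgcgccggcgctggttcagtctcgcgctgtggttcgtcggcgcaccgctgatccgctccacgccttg

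Both strands were searched, and the motifs do not overlap each other. TCACNCCAC was found in 1 of the 29 member windows, that of *Hmgcs1*, and in 1.24% of all 32851 windows in the RefSeq table. CCAAT was found in 20 of the 29 windows, or 69.0%, against 37.4% of all windows. Counted by gene, 20 of the 23 members matched had a CCAAT in a window, beside 41.1% of all genes in that table, and *Acat2*, *Scap* and *Aacs* did not. *Hmgcs1* held 4 CCAAT matches and the *Aacs* window shown above held no match to either motif. These matches describe letters in these windows and show no binding.

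Total counts per liver lay between 37482458 and 56177588, so that 3 counts corresponded to 0.053 to 0.080 CPM (counts scaled to library size), a limit that covers counting error only. Levels are given throughout as CPM after TMM scaling, a correction for differences in RNA composition between libraries. The TMM factors of LΔ*Rbfox2* livers 3 and 4 were 0.724 and 0.776, apart from the 1.02 to 1.14 of the other 6 livers. *Rbfox2* itself was at 17.1, 10.4, 11.4 and 18.3 CPM in LWT livers 1 to 4 and at 4.61, 6.09, 2.24 and 3.19 CPM in LΔ*Rbfox2* livers 1 to 4. Every LΔ*Rbfox2* liver was under every LWT liver, as the labels require (log2 fold change −1.82, SE 0.32, edgeR unadjusted *P* = 2.2e-04, adjusted *P* = 0.504). Hepatocyte markers summed to 43057 to 63201 CPM in LWT and 47929 to 68631 CPM in LΔ*Rbfox2* livers, and *Cpa1*, *Prss1* and *Umod*, which mark the pancreas and kidney, were at 0 counts in all livers. *Cela1*, an elastase gene in the same list of 6 markers of other tissues, was at 3.53 to 4.66 CPM in LWT and 3.04 to 9.85 CPM in LΔ*Rbfox2* livers, and *Ckm* and *Acta1*, which mark muscle, had at most 1 count.

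No member passed the test between genotypes, and the differences that the pathway did show were mostly towards lower mRNA in LΔ*Rbfox2* livers. The lowest ratios were those of *Aacs*, at 43.1% of the LWT mean, *Sqle* at 53.2%, *Fdps* at 61.0%, *Lss* at 61.2% and *Srebf2* at 63.9%. The highest were those of *Npc2*, at 145% of the LWT mean, *Ggps1* at 141% and *Insig2* at 131%. The other members lay between these, and for each of them the genotypes overlapped.

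All 28 members had enough counts to be tested, from 21 counts for *Fdps* in LΔ*Rbfox2* liver 4 to 20180 for *Insig2* in LΔ*Rbfox2* liver 2. In edgeR's quasi-likelihood test, with a threshold of 0.05 on the adjusted *P*, 0 of the 28 were called, beside 0 of the 13856 genes tested (0%). At an unadjusted *P* under 0.05 in the same test there were 3 members (10.7%), *Aacs*, *Lss* and *Srebf2*, beside 1356 of all genes (9.79%). All 3 members were lower in LΔ*Rbfox2* livers, where 1.83% of all genes passed in that direction and 7.95% in the other. The DESeq2 test called 10 genes, 0.0836% of those it gave an adjusted *P*, and 0 members. The smallest adjusted *P* of a member was 0.504 in edgeR, and ranged from 0.187 to 0.913 over the alternatives other than leaving out livers. With each liver left out it ranged from 0.0838 to 0.910, and the lowest of these was without LΔ*Rbfox2* liver 2.

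By sign alone, 21 of 28 members (75%) had a log2 fold change below 0, beside 51.6% of all genes tested. The median over the members was −0.18, beside −0.02 over all genes. After TMM scaling, genotypes did not overlap for 2 members, *Aacs* (lower) and *Ggps1* (higher), which is 7.14% of the 28. Among all genes 2.28% did not overlap, 1.23% lower and 1.05% higher. Since the members share a regulator and the same 8 livers, these shares describe the group and were not tested. They also leaned on single livers. Without LWT liver 4 the median was −0.04 and 1 member was at an unadjusted *P* under 0.05, and without LΔ*Rbfox2* liver 3 the median was −0.34 and 8 members were.

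**Figure D1:**
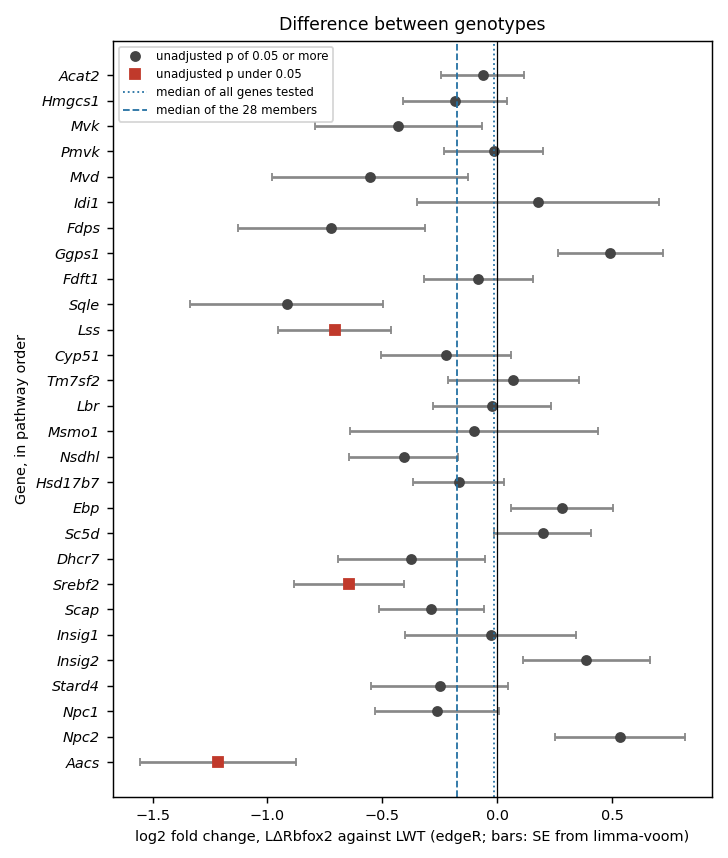
Log2 fold change of each of the 28 members, LΔ*Rbfox2* against LWT (horizontal axis, edgeR, n = 4 livers per genotype; bars, SE from limma-voom), in pathway order from top to bottom. Red squares mark the 3 members at an unadjusted *P* under 0.05 (*Aacs*, *Lss*, *Srebf2*), and the dashed line at −0.18 and the dotted line at −0.02 are the medians of the members and of all genes tested.

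The first 5 enzymes turn acetyl-CoA into activated isoprenoid precursors. *Acat2* (acetoacetyl-CoA thiolase) and *Hmgcs1* (HMG-CoA synthase) build the carbon skeleton, *Mvk* and *Pmvk* phosphorylate mevalonate, and *Mvd* decarboxylates the product. All 5 log2 fold changes were below 0, from −0.02 for *Pmvk* to −0.55 for *Mvd*, and none had an unadjusted *P* under 0.05 in edgeR. *Acat2* was at 58.4 ± 7.09 CPM in LWT and 55.9 ± 10.3 CPM in LΔ*Rbfox2* livers (SD, n = 4 each, as in all values of this form). *Hmgcs1* was at 66.1 ± 12.1 and 58.3 ± 15.3 CPM, in the same order. The log2 fold changes of these 2 abundant enzymes were −0.06 (SE 0.18) and −0.18 (SE 0.23).

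The 3 enzymes that follow in the stretch were much less abundant. *Mvk* was at 4.52 ± 1.61 CPM in LWT and 3.36 ± 1.71 CPM in LΔ*Rbfox2* livers (log2 fold change −0.43, SE 0.36). *Pmvk* was at 8.79 ± 1.35 and 8.71 ± 2.38 CPM (log2 fold change −0.02, SE 0.22). *Mvd* was at 2.43 ± 0.88 and 1.68 ± 0.85 CPM (log2 fold change −0.55, SE 0.43), and its largest value, 3.13 CPM in LWT liver 4, was over 3 times its smallest, 0.94 CPM in LΔ*Rbfox2* liver 1. The groups overlapped for all 5 genes. *Acat2* has a neighbouring paralogue, *Acat3*, at a mean of 161 CPM in LWT and 174 CPM in LΔ*Rbfox2* livers, so reads that fit both copies are a limit on its value.

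The isoprenoid step was the most divided. *Idi1* makes the isomer of isopentenyl diphosphate from which chains start, *Fdps* joins units into farnesyl diphosphate, and *Ggps1* extends that to geranylgeranyl diphosphate, used to prenylate proteins and leading away from sterols. *Ggps1* was at 3.89, 3.62, 3.66 and 3.41 CPM in LWT livers 1 to 4 and at 4.04, 3.97, 5.23 and 7.31 CPM in LΔ*Rbfox2* livers 1 to 4. After TMM scaling, every LΔ*Rbfox2* liver was above every LWT liver, by little in livers 1 and 2 and clearly in livers 3 and 4. Before that scaling, LΔ*Rbfox2* liver 3, with 180 *Ggps1* counts of 47506181, was the lowest liver of either genotype. It was just under LWT liver 4, with 148 of 38607789, and the other LΔ*Rbfox2* livers were still above every LWT liver. The separation of the genotypes therefore depended on the scaling. The log2 fold change was +0.49 (SE 0.23; edgeR unadjusted *P* = 0.0575, adjusted *P* = 0.508; exact two-sided permutation *P* = 0.0286, which is the lowest value possible with 4 livers in each genotype). With a correction of each library for gene length and GC content it was +0.25, and without LΔ*Rbfox2* liver 4 it was +0.28.

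Exons of *Ggps1* overlap those of *Arid4b* on the opposite strand over 257 bases, and *Arid4b* was at 15.5 ± 7.45 and 14.6 ± 3.38 CPM. The strand setting used in counting is not given in the sources used here, so reads in that overlap cannot be told apart.

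*Fdps* lay the other way, at 1.52, 2.03, 1.997 and 3.13 CPM in LWT livers and 1.37, 0.77, 2.50 and 0.65 CPM in LΔ*Rbfox2* livers. After TMM scaling, LΔ*Rbfox2* liver 3 was higher than 3 of the LWT livers, so the groups overlapped (log2 fold change −0.72, SE 0.41, edgeR unadjusted *P* = 0.122). Before that scaling, the same liver, with 86 *Fdps* counts of 47506181, was above LWT liver 1 only, with 58 of 37482458. *Fdps* also shares 1124 of its 4208 exonic bases with *Gm43738*, annotated on the same strand, which had 0 counts over the 8 livers. How reads in the shared bases were counted is not known, which limits the level of *Fdps*. *Idi1*, whose values were singled out after they were seen, was at 14.0, 46.5, 38.2 and 39.4 CPM in LWT livers and 17.4, 17.6, 78.1 and 43.5 CPM in LΔ*Rbfox2* livers. It was low in 1 LWT and 2 LΔ*Rbfox2* livers and highest in another LΔ*Rbfox2* liver, and the genotypes did not separate (log2 fold change +0.18, SE 0.53, edgeR unadjusted *P* = 0.732). Without LΔ*Rbfox2* liver 3 the sign turned, to −0.43.

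The 3 enzymes around squalene commit the pathway to sterols, and all 3 had log2 fold changes below 0. *Fdft1* (squalene synthase) condenses farnesyl diphosphate into squalene, *Sqle* (squalene epoxidase) oxidises it and is a known control point, and *Lss* (lanosterol synthase) closes the rings. *Lss* was at 12.6, 9.86, 12.5 and 18.2 CPM in LWT livers 1 to 4 and at 5.98, 9.54, 10.3 and 6.72 CPM in LΔ*Rbfox2* livers 1 to 4. After TMM scaling, only LΔ*Rbfox2* liver 3 exceeded any LWT liver, and it exceeded only LWT liver 2. Before that scaling every LΔ*Rbfox2* liver was under every LWT liver. The closest were LΔ*Rbfox2* liver 2, with 611 *Lss* counts of 56177588, and LWT liver 2, with 491 of 44953789. The log2 fold change of *Lss* was −0.71 (SE 0.25; edgeR unadjusted *P* = 0.0167, adjusted *P* = 0.504; exact permutation *P* = 0.0571), and lay between −0.86 and −0.52 with each liver left out in turn.

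*Sqle* had the larger difference of the 3 but also a larger spread. It was at 4.68, 8.96, 10.4 and 14.3 CPM in LWT livers and at 2.65, 3.73, 9.54 and 4.46 CPM in LΔ*Rbfox2* livers. Liver 1 was the lowest of the LWT group, and LΔ*Rbfox2* liver 3 was among the LWT values. The log2 fold change was −0.92 (SE 0.42; edgeR unadjusted *P* = 0.0571, adjusted *P* = 0.508). *Fdft1* was at 31.2 ± 6.54 CPM in LWT and 29.5 ± 7.70 CPM in LΔ*Rbfox2* livers, a log2 fold change of −0.08 (SE 0.24). Over 774 bases its exons are shared with *Ctsb*, a lysosomal protease gene on the opposite strand that was at 265 CPM in LWT livers.

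The 9 enzymes after lanosterol had smaller differences than *Sqle* and *Lss*, with log2 fold changes from −0.41 to +0.28 and none at an unadjusted *P* under 0.05 in edgeR. *Cyp51*, *Tm7sf2*, *Lbr*, *Msmo1*, *Nsdhl* and *Hsd17b7* remove the 3 extra methyl groups of lanosterol and reduce the sterol, *Ebp* shifts a double bond, *Sc5d* adds one, and *Dhcr7* removes another in the last step. *Nsdhl* was at 8.96 ± 1.76 and 6.76 ± 2.11 CPM (log2 fold change −0.41, SE 0.24). *Dhcr7* was at 13.9 ± 5.53 and 10.7 ± 3.71 CPM (log2 fold change −0.37, SE 0.32). *Cyp51* was at 31.5 ± 7.94 and 27.0 ± 9.11 CPM (log2 fold change −0.22, SE 0.28). For all 3 genes the LWT mean was higher, and the values of the genotypes overlapped.

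*Hsd17b7* was at 46.7 ± 7.18 and 41.6 ± 8.43 CPM, a log2 fold change of −0.17 (SE 0.20). *Ebp* was at 94.2 ± 19.9 and 115 ± 26.9 CPM, and *Sc5d* at 124 ± 20.8 and 142 ± 31.4 CPM, with log2 fold changes of +0.28 (SE 0.22) and +0.20 (SE 0.21). Both are among the most abundant members, and both had the higher mean in LΔ*Rbfox2* livers. *Tm7sf2* and *Lbr*, which encode related sterol reductases, had log2 fold changes of +0.07 (SE 0.29) and −0.02 (SE 0.26) at very different levels, 63.5 ± 20.6 and 3.92 ± 0.37 CPM in LWT livers. *Tm7sf2* shares 532 exonic bases with *Vps51* on the same strand and *Cyp51* shares 166 with *Akap9* on the opposite strand.

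*Msmo1*, a methyl sterol oxidase whose values were also singled out after they were seen, had the widest range of all members after TMM scaling. It was at 17.3, 37.2, 35.1 and 55.5 CPM in LWT livers and 13.4, 15.8, 79.6 and 26.7 CPM in LΔ*Rbfox2* livers. The largest value was 5.96 times the smallest, and these 2 values were both in LΔ*Rbfox2* livers. Before that scaling, LΔ*Rbfox2* liver 3, with 2738 *Msmo1* counts of 47506181, was under LWT liver 4, with 2412 of 38607789. The log2 fold change was −0.10 (SE 0.54). *Idi1*, with a range of 5.57 times, was likewise at its 3 lowest values in LWT liver 1 and LΔ*Rbfox2* livers 1 and 2 and at its highest in LΔ*Rbfox2* liver 3.

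**Figure D2:**
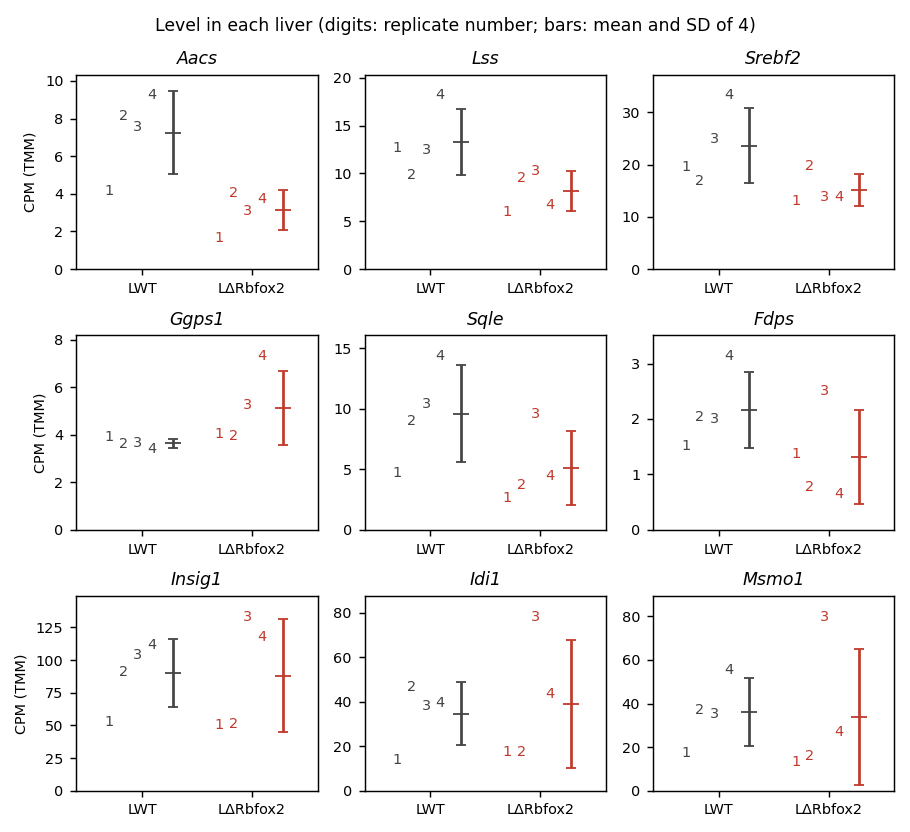
CPM (vertical axis of each panel, linear, from 0) in each liver for 9 members, with digits for the replicate number and bars for the mean and SD of 4 livers (grey, LWT; red, LΔ*Rbfox2*). After TMM scaling, *Aacs* separates below and *Ggps1* above the LWT livers, whereas *Insig1*, *Idi1* and *Msmo1* are low in LWT liver 1 and LΔ*Rbfox2* livers 1 and 2 and high in LΔ*Rbfox2* liver 3.

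Of the 4 genes that control SREBP2 activity, *Srebf2* had the largest difference. It was at 19.5, 16.9, 24.9 and 33.3 CPM in LWT livers 1 to 4 and at 13.0, 19.7, 13.8 and 13.8 CPM in LΔ*Rbfox2* livers 1 to 4. All but LΔ*Rbfox2* liver 2 were under every LWT liver, and LWT liver 4 stood highest. The log2 fold change was −0.65 (SE 0.24; edgeR unadjusted *P* = 0.0226, adjusted *P* = 0.504; exact permutation *P* = 0.0857). With each library corrected for gene length and GC content it was −0.30, so its size depends on that choice. *Scap*, the sterol sensor and escort of SREBP2, was at 64.9 ± 15.5 and 53.2 ± 11.9 CPM (log2 fold change −0.29, SE 0.23), and its sign turned under the same correction, to +0.09.

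*Insig1* and *Insig2* encode the proteins that retain SCAP, and *Insig1* is itself a well known SREBP target whose mRNA follows SREBP activity. *Insig1* was at 52.7, 91.2, 104 and 112 CPM in LWT livers and 50.5, 51.4, 133 and 118 CPM in LΔ*Rbfox2* livers. These are 3 livers near 50 CPM, from both genotypes, and 5 livers at 91.2 CPM or more, with no difference between the genotype means that exceeded the spread (89.8 ± 26.1 and 88.1 ± 43.3 CPM, log2 fold change −0.03, SE 0.37). *Insig2*, which in the liver is known to have a transcript that insulin lowers, was at 228 ± 57.9 and 299 ± 84.1 CPM (log2 fold change +0.39, SE 0.28, edgeR unadjusted *P* = 0.176).

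Cholesterol transport within the cell was represented by *Stard4*, a cytosolic sterol carrier, and by *Npc1* and *Npc2*, which pass cholesterol out of lysosomes together. *Stard4* was at 34.1 ± 11.5 and 28.6 ± 8.53 CPM, a log2 fold change of −0.25 (SE 0.30). The NPC genes lay in opposite directions although their products act in 1 step. *Npc1* was at 82.4 ± 27.3 and 68.8 ± 19.5 CPM (log2 fold change −0.26, SE 0.27), and *Npc2* at 39.4 ± 10.4 and 57.1 ± 17.6 CPM (log2 fold change +0.53, SE 0.28, edgeR unadjusted *P* = 0.0807). The values of *Npc2* were 30.9, 52.3, 43.5 and 31.0 CPM in LWT livers and 59.6, 31.5, 68.0 and 69.5 CPM in LΔ*Rbfox2* livers. All LΔ*Rbfox2* livers but the second were above every LWT liver after TMM scaling. Before that scaling, LΔ*Rbfox2* livers 3 and 4, with 2338 *Npc2* counts of 47506181 and 2244 of 41646283, were under LWT liver 2, with 2604 of 44953789.

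*Aacs*, acetoacetyl-CoA synthetase, lets the cytosol use ketone bodies as a precursor of sterols and fatty acids, and it had the largest difference of the 28. It was at 4.15, 8.12, 7.53 and 9.23 CPM in LWT livers 1 to 4 and at 1.64, 4.06, 3.08 and 3.72 CPM in LΔ*Rbfox2* livers 1 to 4. After TMM scaling the groups did not overlap, although LWT liver 1 and LΔ*Rbfox2* liver 2 were nearly equal. Before that scaling, LΔ*Rbfox2* liver 2, with 260 *Aacs* counts of 56177588, was above LWT liver 1, with 159 of 37482458. The log2 fold change was −1.21 (SE 0.34; edgeR unadjusted *P* = 0.0038, adjusted *P* = 0.504; exact two-sided permutation *P* = 0.0286). Leaving out each liver in turn gave −1.43 to −0.998, the smallest of these without LΔ*Rbfox2* liver 1. The gene is on chromosome 5 (125475814 to 125517410, plus strand, GRCm38), and no annotated exon of another gene overlaps its exons.

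Compared per length, as CPM per kilobase of exons, the members covered a wide range of levels. *Insig2* was highest at 65.8 in LWT and 86.1 in LΔ*Rbfox2* livers, followed by *Ebp* at 40.8 and 49.6, *Insig1* at 29.0 and 28.5 and *Sc5d* at 25.5 and 29.2. *Fdps* was lowest in both genotypes, at 0.52 and 0.31, with the limit of the exonic bases that it shares with *Gm43738*. Next came *Ggps1* (0.77) and *Lbr* (0.82) in LWT livers, and *Lss* (0.75) and *Aacs* (0.81) in LΔ*Rbfox2* livers. Among enzymes, those with the highest level per length (*Ebp*, *Sc5d*, *Acat2*, *Tm7sf2* and *Hmgcs1*) had log2 fold changes between −0.18 and +0.28, and *Aacs*, *Sqle*, *Lss* and *Fdps*, which had the lowest ratios to the LWT mean, were all under 2 CPM per kilobase. So were *Ggps1* and *Lbr*, with log2 fold changes of +0.49 and −0.02, and *Mvk* and *Mvd*, at −0.43 and −0.55. The lengths were taken from the union of annotated exons, so a level per length is approximate where few transcripts use all of them.

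After TMM scaling, the enzymes varied together from liver to liver, and this pattern crossed the genotypes. Of the 20 synthesis enzymes, 19 were below their own 8-liver mean (on the log2 scale) in LWT liver 1, and 3, 3 and 4 in LWT livers 2, 3 and 4. In LΔ*Rbfox2* livers 1, 2, 3 and 4 the counts were 14, 18, 1 and 11. Hence, after this scaling, the pathway was low in 1 LWT liver and in LΔ*Rbfox2* livers 1 and 2. It was high in LΔ*Rbfox2* liver 3 and in 3 LWT livers, and mixed in LΔ*Rbfox2* liver 4. The places of LΔ*Rbfox2* livers 3 and 4 depended on the scaling, because their TMM factors (0.724 and 0.776) raised their values against the other livers. Before it, LΔ*Rbfox2* liver 3, with 2547 *Hmgcs1* counts of 47506181, was under LWT liver 2, with 3310 of 44953789. *Idi1* was highest in LΔ*Rbfox2* liver 3 before scaling too. Between 44.9% and 56.8% of all genes tested were below their mean in any liver.

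**Figure D3:**
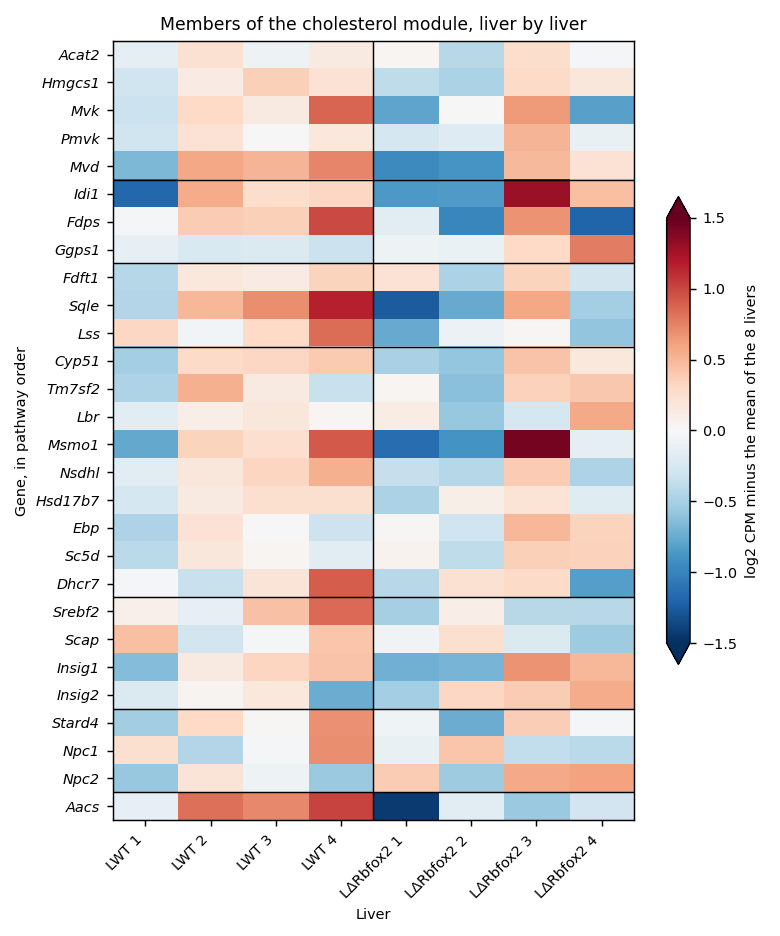
Log2 CPM of each member minus its mean over the 8 livers (colour, red above and blue below; colour scale ends at ±1.5), with genes in pathway order as rows and livers as columns, separated by genotype. After TMM scaling, columns for LWT liver 1 and LΔ*Rbfox2* livers 1 and 2 are mostly blue over the 20 enzyme rows (19, 14 and 18 below the mean), and that for LΔ*Rbfox2* liver 3 is mostly red (1 below the mean).

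The median deviation of the 28 members from their means was −0.30, 0.18, 0.18 and 0.41 in LWT livers 1 to 4 and −0.36, −0.42, 0.36 and −0.07 in LΔ*Rbfox2* livers 1 to 4, in log2 units. The same median over all genes tested lay between −0.05 and 0.04 in every liver. After TMM scaling, the spread of these medians within a genotype was thus wider than the median difference between genotypes of −0.18. LWT liver 4 held the highest value of 13 members and LΔ*Rbfox2* liver 3 that of 8, where these livers held the highest value of 15.03% and 13.06% of all genes tested. LΔ*Rbfox2* livers 1 and 2 held the highest value of 0 members and the lowest of 8 and 7, where they held the lowest of 7.76% and 9.21% of all genes. LΔ*Rbfox2* liver 4 held the highest value of 4 members and the lowest of 5, beside 23.7% and 14.3% of all genes. The ratio of the highest to the lowest liver had a median of 2.24 over the members, beside 2.09 over the 11408 genes with a mean of at least 1 CPM. The members with the widest range were *Msmo1*, *Aacs*, *Idi1* and *Sqle*, at 5.96, 5.61, 5.57 and 5.41 times, and those with the narrowest were *Acat2*, at 1.59 times, *Hsd17b7* at 1.64 and *Sc5d* at 1.69. LΔ*Rbfox2* liver 3 also had the lowest TMM factor of the 8 (0.724), so its high place depended on the scaling. Whether that factor is right for this liver was not tested.

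**Figure D4:**
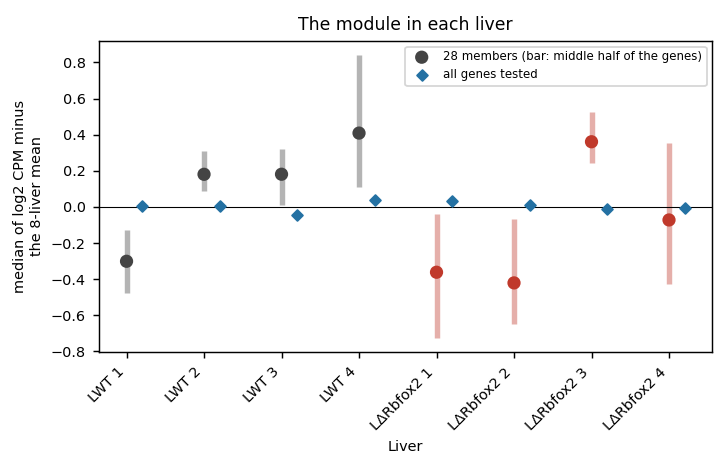
Median over the 28 members of log2 CPM minus the 8-liver mean (vertical axis) in each liver (circles; bars, interquartile range over genes; grey, LWT; red, LΔ*Rbfox2*), with the same median over all genes tested as blue diamonds. After TMM scaling, the members' medians run from −0.42 in LΔ*Rbfox2* liver 2 to 0.41 in LWT liver 4, whereas all genes stay between −0.05 and 0.04.

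Whether members follow the mRNA of *Srebf2* was examined over the 8 livers with exact permutation tests, adjusted over the 27 relations. No relation passed this threshold (0 of 27), and 5 had an unadjusted permutation *P* under 0.05. Pearson's r was above 0 for 18 of the 27 and had a median of 0.23. The closest was *Lss*, with r = 0.89 (permutation *P* = 0.0035, adjusted *P* = 0.0958) and Spearman's rho = 0.79 (permutation *P* = 0.0279, adjusted *P* = 0.222). Within genotypes, as deviations from the genotype means, r of *Lss* was 0.76 (adjusted permutation *P* = 0.278).

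The relations of *Npc1* (r = 0.79), *Aacs* (r = 0.78), *Dhcr7* (r = 0.78) and, in the opposite direction, *Npc2* (r = −0.78) had an adjusted permutation *P* of 0.123 each. Their Spearman's rho was 0.71, 0.81, 0.71 and −0.76, with permutation *P* of 0.0576, 0.0218, 0.0576 and 0.0368 and an adjusted *P* of 0.222 each. Within genotypes r was 0.85 for *Npc1*, 0.52 for *Aacs*, 0.78 for *Dhcr7* and −0.68 for *Npc2*. Without the 2 livers farthest from the median of *Srebf2* (LWT liver 4 and LΔ*Rbfox2* liver 1), r was 0.70 for *Lss*, 0.66 for *Npc1*, 0.60 for *Aacs*, 0.48 for *Dhcr7* and −0.74 for *Npc2*, none of which passed a permutation test even before adjustment, and the median over the 27 relations was −0.25. As deviations from the genotype means with all 8 livers kept, the median was 0.05 and 16 of the 27 were above 0. The positive median over the members thus did not hold without those 2 livers, which also narrows the range of *Srebf2*, and was near 0 within genotypes. The pooled r of *Insig1* is not given, because its values fall into 2 separate clusters of livers.

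**Figure D5:**
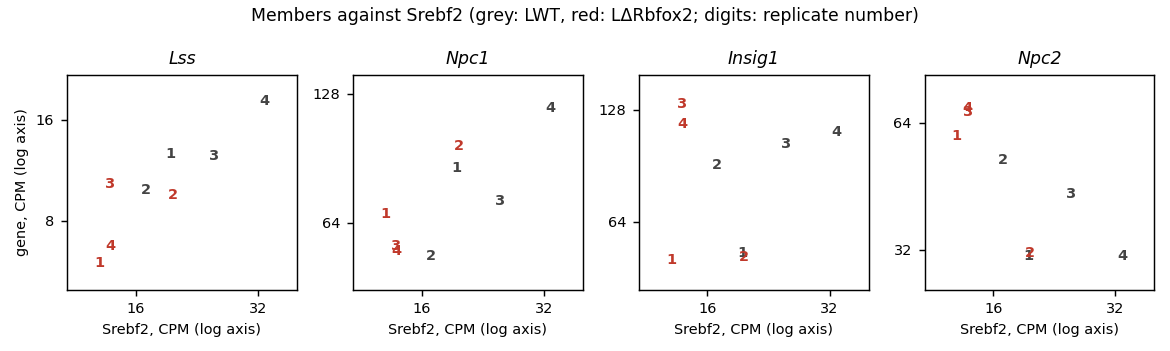
CPM of *Lss*, *Npc1*, *Insig1* and *Npc2* (vertical, log axis) against CPM of *Srebf2* (horizontal, log axis), with 1 digit per liver for the replicate number (grey, LWT; red, LΔ*Rbfox2*; 8 livers). *Lss* and *Npc1* are highest in LWT liver 4, where *Srebf2* is highest (33.3 CPM), *Npc2* is low there, and *Insig1* is near 50 CPM in 3 livers whose *Srebf2* runs from 13.0 to 19.7 CPM.

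Of the genes next to the pathway, those of the isoprenoid branch (12 genes for dolichol and ubiquinone synthesis and protein prenylation) had 0 at an unadjusted *P* under 0.05 in edgeR and a median log2 fold change of 0.02. The smallest *P* there was that of *Fnta*, the shared alpha subunit of protein prenyltransferases (log2 fold change +0.48, SE 0.25, edgeR unadjusted *P* = 0.0796). Of 21 genes for SREBP processing and sterol-regulated protein turnover, 3 were at an unadjusted *P* under 0.05, 1 higher and 2 lower (14.3%, beside 9.79% of all genes), and the median was −0.12. The smallest *P* was that of *Rnf139*, a ubiquitin ligase of the endoplasmic reticulum (24.0 ± 4.30 and 34.8 ± 8.06 CPM, log2 fold change +0.54, SE 0.21, edgeR unadjusted *P* = 0.0282, adjusted *P* = 0.504). The 2 lower genes, named here after their values were seen, were *Mbtps1*, the protease that makes the first cut in SREBP proteins, and *Syvn1*, a ubiquitin ligase of the endoplasmic reticulum. *Mbtps1* was at 32.1 ± 2.66 and 24.8 ± 2.47 CPM (log2 fold change −0.37, SE 0.15, edgeR unadjusted *P* = 0.0300, adjusted *P* = 0.504). Its genotypes did not overlap after TMM scaling, as for 2.28% of all genes, but before that scaling LΔ*Rbfox2* liver 2 was above LWT liver 1. *Syvn1* was at 66.2 ± 17.5 and 42.4 ± 11.8 CPM (log2 fold change −0.64, SE 0.26, edgeR unadjusted *P* = 0.0291, adjusted *P* = 0.504). Of 11 genes for sterol esterification and transport, 0 were at an unadjusted *P* under 0.05, 10 had a log2 fold change below 0 (90.9%, beside 51.6% of all genes), and the median was −0.16. *Soat2*, which esterifies cholesterol in hepatocytes, had the smallest *P* in this list (log2 fold change −0.27, SE 0.17, edgeR unadjusted *P* = 0.142). None of the 44 genes of these lists passed the test after adjustment.

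Whole liver holds cells other than hepatocytes, and in bulk RNA fewer cells of a type and less RNA per cell cannot be told apart. Of 5 Kupffer cell markers, 4 had a log2 fold change below 0, and they summed to 52.6 to 91.7 CPM in LWT and 29.9 to 61.8 CPM in LΔ*Rbfox2* livers. *Clec4f* was the 1 of them at an unadjusted *P* under 0.05 (27.7 ± 6.33 and 16.7 ± 5.79 CPM, log2 fold change −0.73, SE 0.26, edgeR unadjusted *P* = 0.0207, adjusted *P* = 0.504). Endothelial markers summed to 51.0 to 65.5 and 42.0 to 56.6 CPM, and stellate cell markers to 55.9 to 116 and 72.6 to 118 CPM. Cholangiocyte markers summed to 3.27 to 4.49 and 3.02 to 5.64 CPM. The part of these cells in the values of the 28 members was not tested.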

How the data were processed

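Livers of 4 LWT and 4 LΔ*Rbfox2* mice fed a CD were compared. Per the study's methods and the submitters' processing notes, the authors aligned 100 basepair paired-end reads to GRCm38 with TopHat2 v.2.0.11 and counted reads per gene with featureCounts. The deposited values are these raw counts, without normalization. The featureCounts version and its strand and multi-mapping settings are not given in the sources used here. All 8 columns were matched to livers by name.

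Symbols came from GENCODE M21 (45229 of 46078 identifiers matched). In R 4.3.3, edgeR 4.0.16 (filterByExpr with a minimum count of 10 and a minimum total of 15, TMM, glmQLFit and glmQLFTest) compared genotypes over 13856 genes, with Benjamini–Hochberg adjustment over all of them and a threshold of 0.05. Log2 CPM used a prior count of 2, and SEs came from limma 3.58.1 (voom). Permutation tests were exact and two-sided. On simulated counts for this comparison over 13856 genes, edgeR recovered 8% of 200 genes altered by 1 log2 unit and 88% of 200 altered by 2. DESeq2 1.42.0 was an alternative. No pair of libraries was a copy (smallest chi-square per degree of freedom 97.8). Figures used matplotlib 3.10.9 on Python 3.11.15.

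All 28 members were to be named, with values in every liver for members at an unadjusted *P* under 0.05, members without overlap, *Srebf2*, *Insig1* and the 3 of largest change. Members and lists were chosen with earlier results of these data known. Because the labels do not say whether livers came from separate litters or days, *P* values measure the spread between these livers.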

Additional observations from a re-analysis of the deposited data

Results flagged for a closer look

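In 58 groups of 4 livers (the 28 members and *Rbfox2* in each genotype), 4 held a liver that lay apart from the other 3 by more than Dixon's 95% limit, where chance alone gives 2.9. *Pmvk* was at 12.2 CPM in LΔ*Rbfox2* liver 3, against 7.13 to 7.93 CPM in the other LΔ*Rbfox2* livers. *Nsdhl* was at 9.92 CPM in the same liver, against 5.51 to 5.98 CPM. *Cyp51* was at 19.7 CPM in LWT liver 1, against 34.4 to 37.0 CPM in the other LWT livers. *Srebf2* was at 19.7 CPM in LΔ*Rbfox2* liver 2, against 13.0 to 13.8 CPM. The first pair of values belongs to the liver in which 19 of 20 enzymes were above their mean after TMM scaling, and the third to the LWT liver in which 19 of 20 were below it. That first pair depended on the scaling. Before it, LΔ*Rbfox2* liver 3, with 421 *Pmvk* and 341 *Nsdhl* counts of 47506181, lay nearer to liver 2, with 482 and 361 of 56177588.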

How the results depend on the processing

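No alternative called a member: 0 of the 28 passed under other size factors, DESeq2, limma-voom, another filter, the corrections, the block or any liver left out. The DESeq2 test called 10 genes where edgeR called 0, among them *Rbfox2* (log2 fold change −1.82). On the simulated counts, 17.4% and 20.2% of the DESeq2 calls were false with changes of 1 and 2 log2 units. For edgeR these shares were 5.88% and 7.85%. Of 252 member values under alternatives other than leaving out livers, 248 kept their sign. The 4 that turned were *Idi1* (−0.11) and *Scap* (0.087) with the gene length and GC correction, and −0.21 and 0.078 with the replicate block added to it. With each liver left out, 197 of 224 values kept their sign, and 8 members crossed 0: *Acat2* (−0.20 to 0.05), *Pmvk* (−0.25 to 0.07), *Idi1* (−0.43 to 0.43), *Fdft1* (−0.25 to 0.04), *Tm7sf2* (−0.088 to 0.30), *Lbr* (−0.26 to 0.14), *Msmo1* (−0.99 to 0.18) and *Insig1* (−0.33 to 0.17). *Rbfox2* ranged from −2.09 to −1.64. The members' median ranged from −0.34 to −0.04, and 15 to 23 of the 28 were below 0.

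Without both LWT liver 4 and LΔ*Rbfox2* liver 2, chosen after seeing the data, the median was 0.04, 13 of 28 members were below 0, and 8 turned sign: *Acat2* (0.076), *Pmvk* (0.089), *Fdft1* (0.14), *Cyp51* (0.0014), *Lbr* (0.13), *Msmo1* (0.41), *Insig1* (0.28) and *Stard4* (0.13), while *Idi1* was at 0.49. With any 1 liver left out *Cyp51* and *Stard4* stayed below 0, down to −0.46 each. The cause was not tested. The labels number livers 1 to 4 in each genotype, but the deviations of same-numbered livers correlated at 0.13, −0.61, 0.12 and −0.51. No liver correlated best with its own number, so there was no sign that the numbers pair the livers. A pairing weaker than the variation between libraries would not show in these correlations. With the number as a replicate block, 0 genes and 0 members were called, 335 genes were at an unadjusted *P* under 0.05 against 1356 without it, and the members' median was −0.22. Depth limits the least abundant members: *Fdps* had 21 to 136 counts per liver and *Mvd* 41 to 139.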
